A study of Mus musculus with 4 samples.

Results

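The chromatin regions described here are the ATAC-seq peaks of mouse bone marrow-derived macrophages (BMDMs) that lay in exons, untranslated regions (UTRs) or at the ends of genes and were found in every library. They were chosen by presence: overlapping peaks of the 4 deposited peak lists were merged into 60710 regions on chromosomes 1 to 19, X and Y, a region took the annotation of its highest peak, and it was kept if it held a peak in all 4 libraries and was annotated as exon, 5' UTR, 3' UTR, TTS (transcription termination site, the end of a gene) or non-coding (an exon of a non-coding RNA). This gave 1124 of the 25442 regions shared by all 4 libraries, namely 367 exon, 293 5' UTR, 228 TTS, 155 3' UTR and 81 non-coding regions. They are called members below.

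ATAC-seq marks open chromatin by the insertion of adapters by the Tn5 transposase. The cells were wild-type BMDMs, grown from bone marrow of mice aged 8 to 12 weeks for 6 days with L929 supernatant, a source of M-CSF, and both groups share this treatment. The control group (n = 2 libraries) received nothing further and the IL-4 group (n = 2 libraries) received IL-4 at 20 ng/ml for 1 h. The files held peak lists without reads, so the sequencing depth is unknown, and the value of a peak, called peak height here, is −log10 of its q-value as read from the deposited score. The median height over all peaks was 8.04 and 7.46 in the controls, against 7.69 and 6.41 after IL-4, so IL-4 replicate 2 had the lowest heights. Of 10 macrophage markers, 7 had a shared region assigned to them, including Csf1r, Itgam and Lyz2, whereas Adgre1, Mertk and Spi1 had none under that gene name. Promoter regions were shared for 4 macrophage markers, for 1 of 6 neutrophil markers (S100a8) and for none of 6 T cell, 5 B cell, 5 dendritic cell, 5 erythroid and 5 stromal markers. A shared region of any class was assigned to 2 T cell, 1 B cell, 1 neutrophil, 3 dendritic cell, 1 erythroid and 3 stromal markers, and those of Cd3d, Zbtb46 and Klf1 were members.

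IL-4 signals through STAT6, a transcription factor that binds a pair of inverted half-sites with a 4-base spacing and regulates enhancers in macrophages. Most studied enhancers lie in introns or between genes, but the DNA of exons and gene ends can also hold factor binding sites, and the first exon of a gene often belongs to the open stretch of its promoter. The annotation program behind the peak lists, HOMER, calls a peak promoter-TSS when its centre lies between 1000 bp before and 100 bp after a transcription start site (TSS). A peak whose centre lies more than 100 bp into the gene can therefore receive an exon or UTR label even if it opens the promoter as well.

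The sites below are some of the motif matches in the members whose heights are given one by one in the comparison with IL-4. Each has 10 bases of mm10 reference sequence on each side, with the motif in capitals. The plus strand is shown 5′ to 3′ (sequence of GRCm38.p6 from NCBI RefSeq). The first 6 are matches to TTCNNNNGAA, the STAT6 pattern, in the 3 members with the largest increase and the 3 with the largest decrease in height among the members that held it. They are named by the gene of the transcript in the region's annotation, which a TTS region need not lie inside.
Capn1, 3' UTR, chr19:5989229-5989238: ttccttcctgTTCTGAGGAAggcaccagaa
Efr3a, 3' UTR, chr15:65872738-65872747: ccagaccttgTTCTCAAGAAggacaacgca
Cdh3, 3' UTR, chr8:106556393-106556402: gttaacttccTTCCCTGGAAttgattgctc
Ndc1, 5' UTR, chr4:107367922-107367931: gttgagtctgTTCAGGCGAAgctgcggaga
Kctd12, TTS, chr14:102976117-102976126: gcactaggccTTCTTTGGAAataaggaact
Irak3, TTS, chr10:120141209-120141218: gcaaagattcTTCCCTGGAAcctcctcgag
The Cdh3 and Irak3 sites carried the same 10 bases, one in a region that was higher and one in a region that was lower in the IL-4 group. The Irak3 direction was not stable, as its log2 change was 0.18 without control replicate 2. The remaining sites are matches to the AP-1 motif (TGACTCA or, read from the other strand, TGAGTCA), found in 4 of the 16 members with the largest changes, a count with no test, beside 14.2% of all members and 21.9% of those beyond 1 kb.
Snx16, 3' UTR, chr3:10418053-10418059: ttcacaagagTGACTCAcagaccctgg
Cd180, exon, chr13:102706027-102706033: catgtagaccTGAGTCAcaacaggctg
Aox2, exon, chr1:58304615-58304621: tctgggccggTGAGTCAtgaactctgt
Htr2b, exon, chr1:86110894-86110900: cgccttttggTGACTCAgtccagttcc

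Members made up a small part of the shared open chromatin, and their classes were less widely shared than promoters. Of 3156 merged regions of the 5 classes, 1095 had a peak in 1 library, 512 in 2, 425 in 3 and 1124 in 4, which is 35.6% in all 4. The same share was 69.4% for promoter-TSS, 34.9% for intron and 36.2% for intergenic regions, so exonic and gene-end regions stood near introns and intergenic DNA and far below promoters. Among the classes it ran from 30.2% for TTS to 46.8% for 5' UTR regions. The share of each library's peaks in the 5 classes was 5.26% and 5.17% in the controls, against 5.13% and 4.94% after IL-4. Both IL-4 libraries lay below both controls, by 0.178 percentage points between the means of 5.21% ± 0.0659 (SD, n = 2) and 5.04% ± 0.139 (SD, n = 2), but the exact two-sided permutation test over the 4 libraries gave p = 0.3333, the smallest p this design allows.

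The label of a member often depended on where its peak was centred in a given library. The highest peak had the same class in all 4 libraries in 762 members, and in 362 members it had another class in at least 1 library, which was promoter-TSS in 212 of them, intron in 125 and intergenic in 4. A member was usually the only one of its gene: the 1124 regions were assigned to 1079 genes by their nearest TSS, of which 1035 had 1 member, 43 had 2 and Tbc1d9, which encodes a Rab GTPase-activating protein, had 3. Chromosome X carried 24 members and chromosome Y none.

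Members fell into a promoter-side and a distal population. The centre of 508 members (45.2%) lay within 1 kb of the nearest TSS, in each case downstream of it, and 274 of these (53.9%) lay within 200 bp of it. Of 467 such members whose own gene supplied that TSS, 286 (61.2%) also covered the start site itself. The other 616 members lay farther away, 330 of the 1124 by more than 10 kb and 80 by more than 50 kb. 5' UTR regions belonged almost wholly to the promoter side (271 of 293), 3' UTR regions almost wholly to the distal side (153 of 155), and exon regions to both (157 within and 210 beyond 1 kb). Of the 293 5' UTR members, 272 lay in exon 1.

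**Figure D1:**
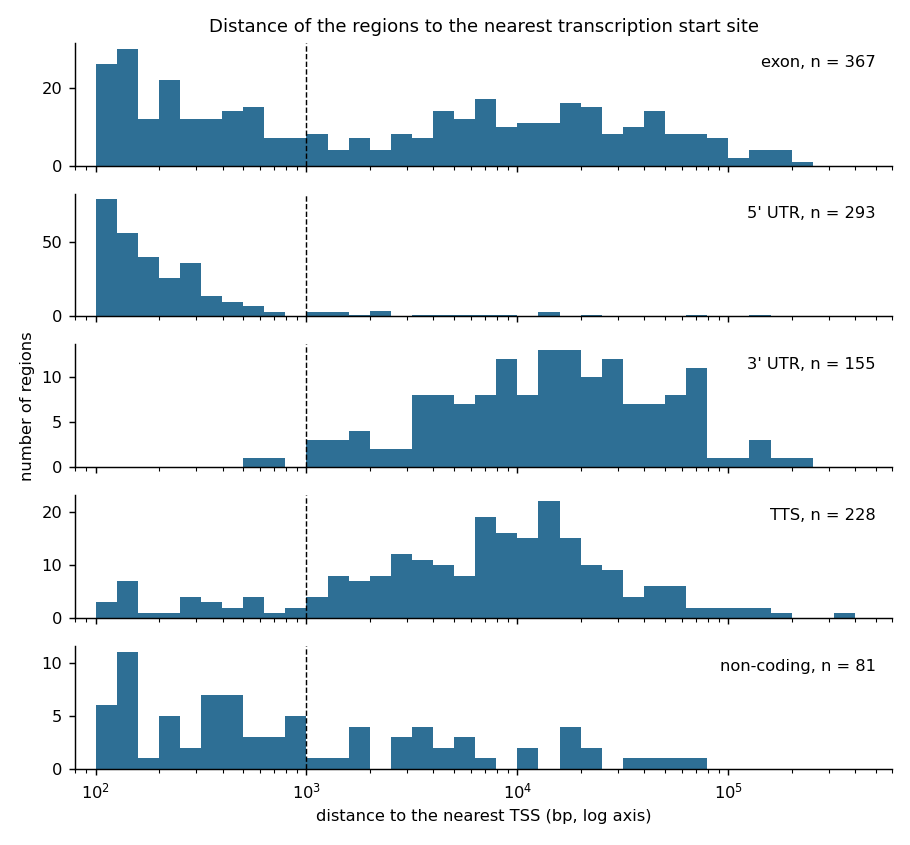
Number of members (vertical axis) by the distance of the highest peak's centre to the nearest TSS in bp (horizontal log axis), one panel per annotation class, with a dashed line at 1000 bp. 5' UTR members pile up between 100 and 200 bp, 3' UTR and TTS members spread around 10 kb, and exon members form both groups. The lower limit of 100 bp is set by the exclusion of the promoter-TSS class.

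Both populations differed in base composition and width. Members within 1 kb had a median GC content of 67.5% around the peak centre, a ratio of observed to expected CpG of 0.847 and a median width of 480.5 bp, close to the values of shared promoter regions (65% GC and a CpG ratio of 0.832). Members beyond 1 kb had 52.25% GC, a CpG ratio of 0.314 and a width of 292 bp. Their GC content and CpG ratio lay above those of intron regions beyond 1 kb (49% and 0.202) and of intergenic regions (49% and 0.223). Among the classes, 3' UTR members were the poorest in CpG (ratio 0.238) and 5' UTR members the richest (0.845). The widest members were the 5' UTR regions of Yipf6 (1237 bp), Golim4 (1140 bp) and Msl3 (1115 bp), each annotated to exon 1. In each of them the highest peak was of the 5 classes in only 1 library.

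Many members lay in the promoter window of start sites that the peak lists did not use. With the broader GENCODE M21 gene set, 350 of 508 members within 1 kb (68.9%, 95% Wilson interval 64.7% to 72.8%) fell inside the promoter window of some transcript. For 691 intron regions within 1 kb this share was 38.8%. Beyond 1 kb this applied to 95 of 616 members (15.4%, interval 12.8% to 18.5%), against 8.58% of intron regions beyond 1 kb (interval 7.98% to 9.22%) and 8.46% of intergenic regions (interval 7.86% to 9.10%). By class, the share beyond 1 kb was 54.5% of 22 5' UTR, 24.8% of 210 exon, 12.9% of 31 non-coding, 8% of 200 TTS and 7.19% of 153 3' UTR members. With the curated RefSeq transcripts of GRCm38.p6 the shares were 12.4% within and 1.62% beyond 1 kb. Examples beyond 1 kb are the 5' UTR regions of Aif1, a calcium-binding protein of macrophages, and Tnip1, an inhibitor of NF-kB signalling, whose centres lay 15 bp and 9 bp upstream of a GENCODE start.

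The gene of the transcript in a region's annotation was often not the gene with the nearest TSS. For 1098 members both genes were known, and they differed in 272 (24.8%). This concerned 74 of 152 3' UTR and 107 of 223 TTS members, but only 4 of 291 5' UTR members. An accessible site in the 3' UTR of Capn1, the protease calpain-1, was for example assigned to Slc22a20, and one in the last exon of Peak1, a pseudokinase, to Tspan3, whose start lay at a distance of −46232 bp (the minus sign means that the region is upstream of it). Regions are therefore named here by the gene of the annotated transcript. Where the peak lists name the nearest gene differently, that name follows in brackets, and it can be an older symbol of the same gene.

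The classes overlapped widely in height. The median height over the 1124 members was 11.93 and 10.36 in the controls, against 10.48 and 8.21 after IL-4. 5' UTR members were the highest class in each library, with medians of 13.16, 11.53, 12.13 and 9.83 in the same order, and TTS members had medians of 10.86, 9.735, 10.04 and 7.145. The lower heights of IL-4 replicate 2 ran through every class. Below, heights of single regions are unnormalised, and so are statements that their groups overlap, rise or fall. Log2 changes and counts over all regions use normalised heights. Pairs of libraries correlated over the members with Pearson's r of 0.735 within the control group, 0.726 within the IL-4 group and 0.668 to 0.728 between groups, a description over regions of the same libraries.

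**Figure D2:**
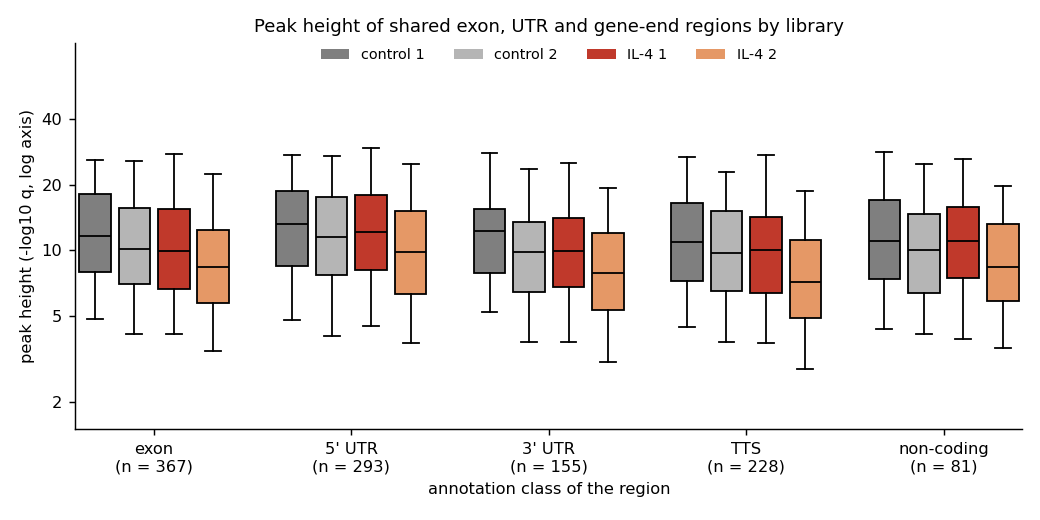
Peak height (−log10 q, log axis) of the members by annotation class and library, with boxes from the 25th to the 75th percentile, a line at the median and whiskers from the 5th to the 95th percentile. The classes overlap widely, and IL-4 replicate 2 has the lowest median in each class.

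Of the 15 highest members, 3 in each class ranked by their lowest library, 7 lay in exon 1 and 10 within 1 kb of a TSS. Among 5' UTR members, Tasp1, a protease that cleaves MLL proteins, had heights of 69.49 and 43.96 in the controls against 55.29 and 44.04 after IL-4. It was followed by Golim4, a Golgi membrane protein, and Cox7c, a subunit of cytochrome c oxidase. In Tasp1 and Golim4 the highest peak was of the 5 classes in only 1 library. Among non-coding members, the region in Cldnd1 (Cldn25) stood at 53.0 and 49.7 against 59.17 and 53.07. Exon members were led by exon 2 of Mcm9, a helicase of DNA repair, with 40.28 and 35.2 against 40.64 and 34.72. In these examples control and IL-4 heights overlapped, except that both IL-4 values of Cldnd1 were above both controls, by a small margin.

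High distal members also existed. The 3' UTR of Tpd52 (Mrps28) had heights of 43.41 and 42.9 in the controls against 40.86 and 21 after IL-4, and the 3' UTR of the kinase Stk38l (Arntl2) had 35.74 and 34.66 against 25.17 and 26.13. Both were lower in both IL-4 libraries before normalisation. After it, same-numbered libraries differed (IL-4 minus control) by −0.10 and −0.82 log2 units for Tpd52 and by −0.45 and −0.23 for Stk38l. A gene-end region of Gorasp1, a Golgi stacking protein, reached 30.04 and 26.18 against 37.4 and 28.0, and exon 2 of the non-coding gene 4833422C13Rik (Acot12) reached 44.46 and 40.32 against 40.12 and 38.2.

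At the lower edge of the rule, the weakest members were an exon 1 region of Tmeff1, a transmembrane protein with follistatin-like domains, whose lowest height was 1.42, and the 3' UTR of Atg14, an autophagy factor, with a lowest height of 1.81. Just outside it, an exon region of Polr1a, the large subunit of RNA polymerase I, had heights of 15.82 and 22.52 in the control libraries and 14.82 in IL-4 replicate 1 but no peak in IL-4 replicate 2. A TTS region of Slamf7, a receptor of immune cells, had 20.75, 13.73 and 13.17 in the same 3 libraries and likewise no peak in the other.

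The next comparison asked whether 1 h of IL-4 changed the height of the members. None passed the test: with log2 heights, quantile normalisation and limma over all 25442 shared regions, 0 of 1124 members had a Benjamini-Hochberg adjusted p under 0.05, and the lowest adjusted p of a member was 0.218. The background was small as well, since 6 of all shared regions passed (0.0236%). At an unadjusted limma p under 0.05, 36 members (3.20%) were higher and 40 (3.56%) lower in the IL-4 group, 76 (6.76%) in all, where the background was 4.12% higher, 4.15% lower and 8.28% in either direction. The count depended on 1 library, as it was 48 (4.27%, background 6.42%) without IL-4 replicate 2. Both normalised IL-4 heights were above both normalised control heights in 218 members (19.4%, background 19.2%) and below them in 180 (16%, background 18.6%), shares near the background. Loss of a peak in any library removes a region from this comparison by the rule.

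The small shifts of the promoter-side and distal members had opposite signs, as did those of promoters and introns. The median log2 change (IL-4 minus control) was 0.04 for members within 1 kb and −0.07 for members beyond 1 kb, beside −0.00065 for all shared regions, 0.04 for promoters and −0.04 for intron regions beyond 1 kb. Within 1 kb, 18 members were higher and 8 lower at an unadjusted limma p under 0.05, and beyond 1 kb 18 were higher and 32 lower (5.12% and 8.12% in either direction). Shared promoters had 240 higher and 149 lower (4.91%), and intron regions beyond 1 kb had 376 higher and 445 lower (10.5%), so the same lean was present outside the members. Per library, the median normalised log2 height of the distal members relative to all regions was −0.161 and −0.163 in the controls and −0.206 and −0.208 in the IL-4 libraries. The IL-4 values lay below both controls by 0.045 on average, with an exact permutation p of 0.3333, which cannot be lower with 4 libraries. For members within 1 kb the values were 0.0038 and 0.0286 against 0.0307 and 0.0964, above both controls with the same p.

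By class, 3' UTR members had the largest share at an unadjusted limma p under 0.05, with 5 higher and 12 lower of 155 (11%), near the 10.5% of intron regions beyond 1 kb and the 10.1% of intergenic regions, and non-coding members the smallest, with 2 higher and 1 lower of 81 (3.70%). Exon members had 12 higher and 13 lower of 367, 5' UTR members 11 higher and 5 lower of 293, and TTS members 6 higher and 9 lower of 228. The median log2 changes ran from −0.08 for TTS to 0.09 for non-coding members. No class was tested apart from the fit over all regions.

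The members with the largest increase were weak in the controls. They and the largest decreases were picked by log2 change, at an unadjusted limma p under 0.05 and with the same direction in same-numbered libraries. This choice favours groups that do not overlap, low control heights for increases and higher ones for decreases. In the 3' UTR of Capn1 (Slc22a20, chr19:5989148-5989364, last of 22 exons) the heights were 2.93 and 3.82 in the controls against 9.64 and 7.56 after IL-4, a log2 change of 1.53 ± 0.54 (SE) with a limma adjusted p of 0.389. In the 3' UTR of Snx16, an endosomal sorting nexin (chr3:10417943-10418223), they were 7.83 and 5.87 against 20.63 and 13.44, a log2 change of 1.52 ± 0.43 with a limma adjusted p of 0.236. Both control heights lay below both IL-4 heights at each of these sites, and the STAT6 and AP-1 sites printed above lie inside them.

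The other increases were mostly in first exons. The 5' UTR of Tbc1d30, a Rab GTPase-activating protein, had 6.95 and 3.7 in the controls against 11.31 and 12.7 in the IL-4 libraries (log2 change 1.47). That of Rgs14, a regulator of G protein signalling, had 10.15 and 4.02 against 18.04 and 11.2 (log2 change 1.36), and that of Dennd5b, a Rab exchange factor, had 5.57 and 4.02 against 13.34 and 7.34 (log2 change 1.3). All 3 were higher in both IL-4 libraries. Exon 1 of Tmeff1 (2.64 and 1.42 against 2.92 and 6.06) and the gene end of Cog8, a subunit of a Golgi tethering complex (Pdf, 2.96 and 4.1 against 8.97 and 6.01), had log2 changes of 1.28 and 1.27. The Rgs14 change was 0.82 without control replicate 2, and the Tmeff1 change was 0.57 without IL-4 replicate 2 and 1.97 without IL-4 replicate 1. The Tmeff1 and Cog8 heights lay below the median of all members in every library. Those of Tbc1d30 and Rgs14 lay above it in both IL-4 libraries. The limma adjusted p of these 5 regions lay between 0.367 and 0.539.

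The members with the largest decrease, picked in the same way, were of medium height in the controls and mostly distal. The last exon of Peak1 (Tspan3, chr9:56207121-56207403) had heights of 15.28 and 16.57 in the controls against 5.67 and 2.79 after IL-4, a log2 change of −1.74 ± 0.50 (SE) with a limma adjusted p of 0.242. The last of 3 exons of Cd180, a Toll-like receptor-related protein of immune cells also called RP105 (chr13:102705935-102706157), had 18.05 and 20.76 against 6.62 and 4.83, a log2 change of −1.56 ± 0.43 with a limma adjusted p of 0.228. At these sites the control libraries agreed closely and both IL-4 libraries were far below them.

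Further decreases were found in exons and 3' UTRs. The 3' UTR of Slc37a2, a sugar phosphate transporter of macrophages (Tmem218), had 12.49 and 10.92 against 3.14 and 2.72 (log2 change −1.71), and that of Ehd1, an ATPase of endocytic recycling (Cdc42bpg), had 15.62 and 15.48 against 5.03 and 4.09 (log2 change −1.56). Exon 14 of Aox2, an aldehyde oxidase (Aox3l1), had 15.31 and 8.17 against 3.68 and 2.49 (log2 change −1.66), and exon 2 of Htr2b, a serotonin receptor gene, had 13.96 and 8.97 against 4.11 and 3.17 (log2 change −1.41). The groups did not overlap in any of these 4 regions, which were picked for large changes. The Htr2b region, though 1157 bp from its RefSeq start, was centred 4 bp upstream of a GENCODE start. The last exon of Lgals7, galectin-7, had 13.25 and 9.3 against 4.98 and 2.49 (log2 change −1.42), and the 5' UTR of Ndc1, a nuclear pore protein (Tmem48), had 14.11 and 13.04 against 6.36 and 3.2 (log2 change −1.37). The limma adjusted p of these 6 regions lay between 0.284 and 0.423. IL-4 replicate 2 was the lower IL-4 library in all 8 of the largest decreases.

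**Figure D3:**
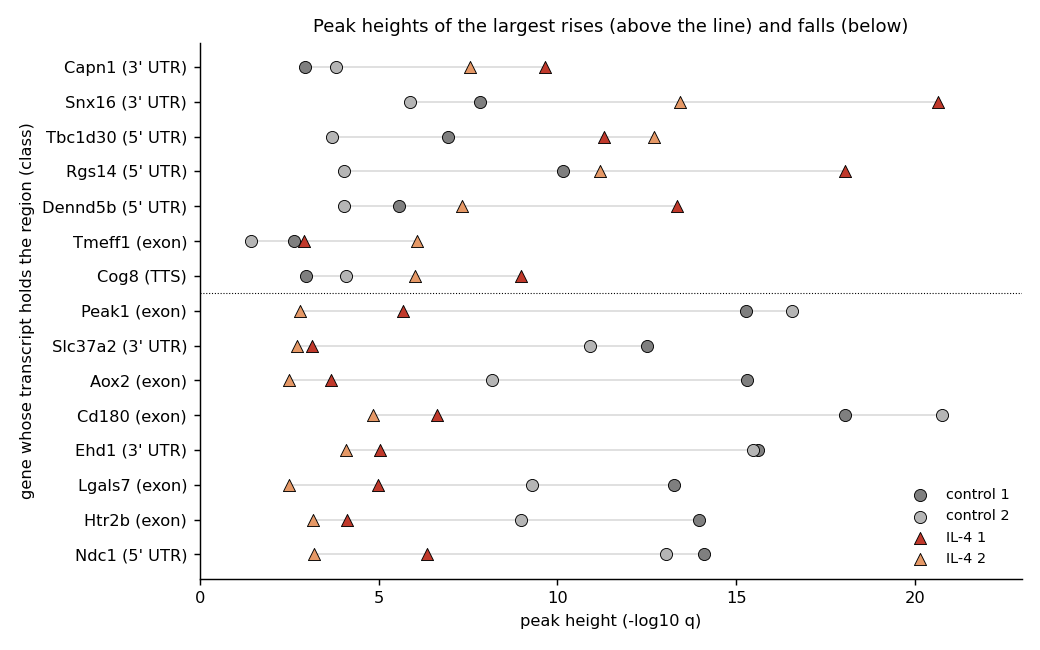
Peak heights (−log10 q) of 7 members with the largest increase and the 8 with the largest decrease after IL-4, with circles for the 2 control and triangles for the 2 IL-4 libraries. The control and IL-4 heights do not overlap in any of the 15 regions, which were picked for large changes, and no region passed the adjusted limma threshold.

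The STAT6 motif was searched as TTCNNNNGAA in the 200 bp around the centre of each highest peak, on both strands, and was present in 46 members (4.09%, 95% Wilson interval 3.08% to 5.42%), beside 5.18% of all shared regions. Members within 1 kb held it in 2.17% (interval 1.21% to 3.84%) and members beyond 1 kb in 5.68% (interval 4.11% to 7.80%), next to 2.66% of promoters, 6.79% of intron regions beyond 1 kb and 6.63% of intergenic regions. The intervals of distal members and of introns overlapped. 3' UTR members held it in 14 of 155 cases (9.03%, interval 5.46% to 14.6%), exon members in 12, TTS members in 9, 5' UTR members in 8 and non-coding members in 3.

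The median height change of distal members with the STAT6 motif was near 0, whereas introns and intergenic regions with the same motif had a median above 0. The median log2 change of the distal members with it was −0.02 (n = 35, 25th to 75th percentile −0.21 to 0.29), with 16 of 35 above 0, against 0.37 in 533 intron regions beyond 1 kb (0.00071 to 0.80) and 0.34 in 521 intergenic regions (−0.03 to 0.77). At an unadjusted limma p under 0.05, 3 of the 35 were higher and 1 lower (8.57% higher), whereas 106 of the introns (19.9%) and 102 of the intergenic regions (19.6%) were higher. Of the 581 distal members without the motif, 15 were higher and 31 lower, with a median log2 change of −0.07. Both normalised IL-4 heights were above both controls in 22.9% of distal members with the motif and 16.2% of those without. They were below both controls in 11.4% and 19.3%. Relative to the distal members without the motif, those with it stood at 0.302 and −0.057 log2 units in the controls and at 0.0358 and 0.508 in the IL-4 libraries, an overlap of the groups with an exact permutation p of 0.6667. The same values for introns were −0.270 and −0.223 in the controls and 0.323 and 0.270 in the IL-4 libraries, which did not overlap (exact permutation p = 0.3333, the smallest possible). The difference between distal members and introns itself was not tested, and only 35 members carry it. When the whole region was searched, 64 distal members held the motif and their median log2 change was −0.03, beside 0.28 in 780 introns.

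The pattern with a 3-base spacing, TTCNNNGAA, which other STAT proteins prefer, gave another picture in the same regions. It was present in 42 distal members (6.82%, 95% Wilson interval 5.08% to 9.09%), beside 6.17% of introns beyond 1 kb. Their median log2 change was 0.26, with 26 of 42 above 0, and 2 were higher and 3 lower at an unadjusted limma p under 0.05. Introns beyond 1 kb with this pattern had a median of 0.11 (n = 484), with 46 higher and 17 lower.

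Individual members with the motif went either way. Besides Capn1, the 3' UTR of Efr3a, which recruits a lipid kinase to the plasma membrane (Oc90), had 5.66 and 14.31 in the controls against 16.91 and 19.33 in the IL-4 libraries, with a log2 change of 1.21 ± 0.41 (SE) and a limma adjusted p of 0.367. This change was 0.46 without control replicate 1 and 1.97 without control replicate 2. The 3' UTR of Cdh3, P-cadherin (1110028F18Rik), had 4.38 and 3.78 against 7.04 and 6.97, with a log2 change of 1.00 ± 0.54. Both regions were higher in both IL-4 libraries. Besides Ndc1, the gene end of Kctd12, a subunit of GABA-B receptors (Mir5130), had 15.27 and 15.46 against 11.15 and 4.3, with a log2 change of −0.92 ± 0.45, and that of Irak3, an inhibitor of Toll-like receptor signalling (Helb), had 9.3 and 21.71 against 8.19 and 8.12, with a log2 change of −0.55 ± 0.45. The Kctd12 change was −0.39 without IL-4 replicate 2 and −1.44 without IL-4 replicate 1. The Irak3 decrease rested on control replicate 2, without which the log2 change was 0.18, and it was −1.30 without control replicate 1.

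**Figure D4:**
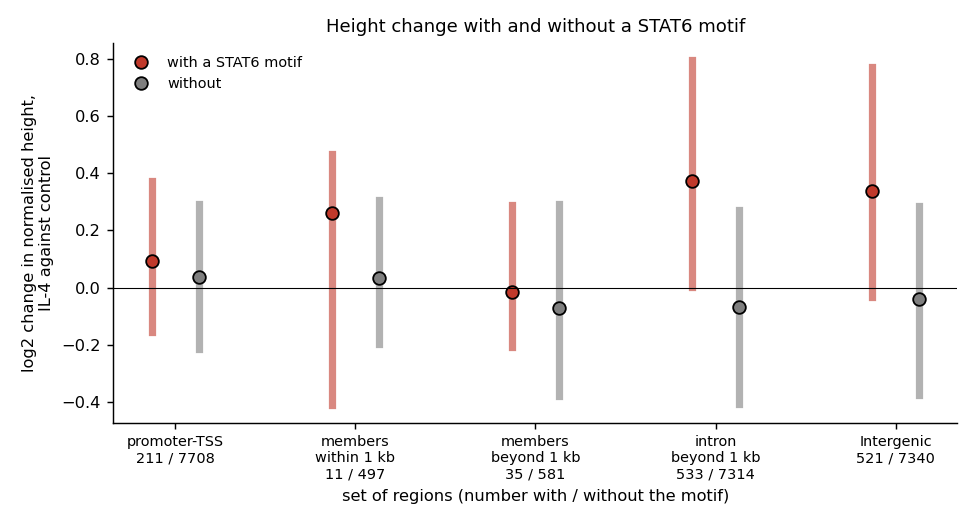
Median (point) and 25th to 75th percentile (bar) of the log2 change in normalised height, IL-4 against control, for regions with (red) and without (grey) a STAT6 motif, in members and in the other shared regions. Introns and intergenic regions with the motif sit at 0.37 and 0.34, while distal members with it sit at −0.02, and only 11 members within 1 kb hold it.

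Other motifs separated the promoter-side from the distal members. AP-1 sites were found in 135 of 616 members beyond 1 kb (21.9%, 95% Wilson interval 18.8% to 25.4%) and in 4.92% of those within 1 kb, beside 27.8% of introns, 26.8% of intergenic regions and 3.11% of promoters. GAGGAAGT, bound by PU.1, the lineage factor of macrophages, was present in 11.2% of distal and 2.95% of promoter-side members. GGGCGG, bound by SP and KLF factors, was present in 54.1% of promoter-side and 17.4% of distal members, where promoters held it in 64.2% and introns in 7.68%. In each of these 3 motifs the share of distal members stood between those of promoters and introns, nearer to introns.

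The remaining motifs were rarer or differed less. TTGCNNAA, bound by C/EBP factors, was present in 14.1% of distal and 4.13% of promoter-side members. CCGGAAGT, bound by ETS factors, was present in 4.53% of promoter-side and 1.95% of distal members, beside 7.58% of promoters and 0.484% of introns. Members within 1 kb held GCGCATGC (NRF1) in 2.17%, AANATGGCG (YY1) in 3.74% and TGACGTCA (CRE) in 0.984% of cases, and distal members in 0.487%, 0.487% and 0.325%. CACGTG (E-box) was present in 6.69% and 6.33%, and the NF-kB motif in 0.591% and 0.487%.

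The motif of CTCF, a factor that anchors chromatin loops, was more frequent in distal members than in the other sets shown. It was present in 26 of 616 distal members (4.22%, interval 2.90% to 6.11%), against 1.11% of introns (interval 0.900% to 1.37%), 1.98% of intergenic regions (interval 1.70% to 2.32%) and 1.325% of all shared regions, and the interval of the distal members lay above the others. Of the 28 members with it, 12 were exon and 10 TTS regions. Their median log2 change was −0.04, and none had an unadjusted limma p under 0.05. Members with an AP-1 site had a median log2 change of −0.10 (n = 160), near the −0.08 of all 4756 shared regions with one.

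**Figure D5:**
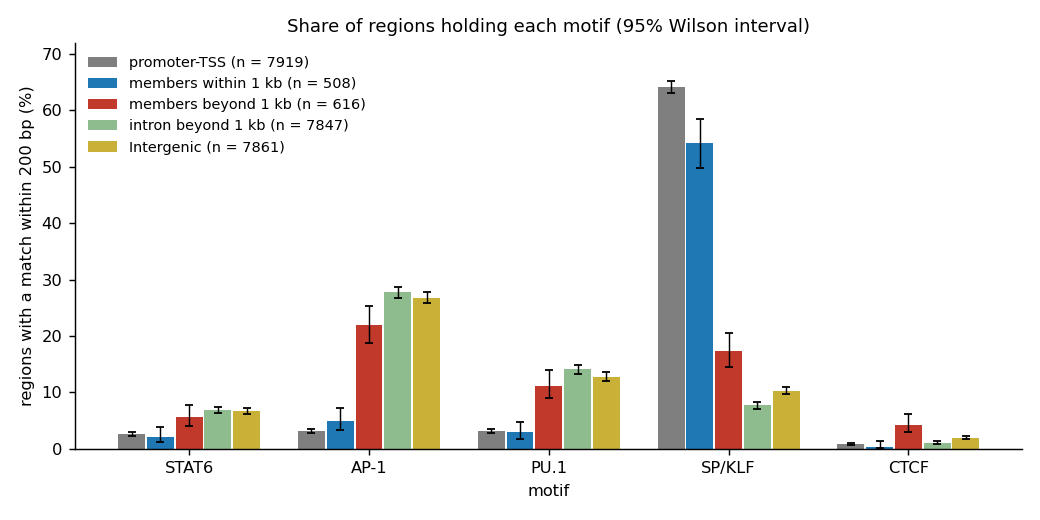
Share of regions (%) with at least 1 match to each motif in the 200 bp around the peak centre, with 95% Wilson intervals, for members within and beyond 1 kb of a TSS and for promoter, intron and intergenic regions. In AP-1 and PU.1, distal members are nearer to introns than to promoters, but lower than introns. In SP/KLF, members within 1 kb are nearer to promoters than to introns, but lower than promoters. CTCF is most frequent in distal members.

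The gene lists are read against the 4.42% of all shared regions that were members, with no test of a list. Statements that both IL-4 heights were above or below both controls stand beside 19.2% and 18.6% of all shared regions, from normalised heights. Of 144 shared regions assigned to a list of 47 genes of alternative macrophage activation, induced by IL-4, 5 were members (3.47%), 0 of which were higher and 1 lower at an unadjusted limma p under 0.05, with a median log2 change of −0.11 beside −0.0059 for all members. Exon 6 of Pparg, a nuclear receptor of alternative polarization, had 14.78 and 9.76 against 16.56 and 15.37, with both IL-4 heights above both controls. The gene ends of Jag1, a Notch ligand, and Cd300ld, a myeloid receptor, and exon 2 of the histone demethylase gene Kdm6b overlapped between groups.

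Inflammatory genes had 10 members of 127 regions (7.87%) and none at an unadjusted limma p under 0.05. The gene end of Tlr4, the LPS receptor, had heights of 26.03 and 18.48 in the controls against 27.98 and 15.14, and that of Nfkbia, the inhibitor of NF-kB, had 9.72 and 14.83 against 11.99 and 17.19. Both overlapped between groups. The other 8 members of this list were assigned to Tnip1, Il12b, Il10, Il1a, Clec4d, Ccl9, Irf7 and Irf8.

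Macrophage identity genes had 6 members of 211 regions (2.84%) with a median log2 change of 0.57, 4 above 0 and 2 below, and 1 of them was higher at an unadjusted limma p under 0.05. This was the 5' UTR of Aif1, with 6.57 and 6.29 in the controls against 9.24 and 13.58 in the IL-4 libraries (log2 change 1.018 ± 0.49, and 0.58 without IL-4 replicate 2). The 3' UTR of Cx3cr1, the fractalkine receptor, had 15.91 and 11.78 against 17.46 and 17.45, and the gene end of Cebpd, a C/EBP factor, had 9.84 and 8.64 against 12.12 and 11.7. Both IL-4 heights exceeded both controls in these 3 regions. In the 3' UTR of Lyz1, a lysozyme gene, the replicates disagreed more than the groups, with 30.13 and 8.96 against 31.66 and 15.27, and how reads shared with its paralog Lyz2 were placed was not tested. The members below 0 were exon 6 of Coro1a, an actin-binding protein of leukocytes, with 6.13 and 3.81 against 4.9 and 3.43 (log2 change −0.07), and exon 3 of the transcription factor gene Irf8, with 9.34 and 6.51 against 8.12 and 4.67 (log2 change −0.10). Both overlapped between groups.

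Short signal-induced genes had 9 members of 282 regions (3.19%), none of them at an unadjusted limma p under 0.05. They included Jund and Junb, subunits of AP-1. Jund had 9.78 and 12.77 in the controls against 8.85 and 7.37, with both IL-4 heights below both controls. Junb had 4.1 and 6.61 against 6.81 and 4.88 and overlapped between groups. Ier2 had 2 members, its own 3' UTR and the last of 47 exons of Cacna1a, a calcium channel gene, where both IL-4 heights (7.3 and 10.64) were above both controls (5.06 and 7.17). KLF and SP factors had 3 members (Klf1, Klf2 and Klf6) of 83 regions (3.61%), and Hox genes had none of 3.

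Replication-dependent histone genes, most of which have a single exon, had 7 members of 40 regions (17.5%), of which 5 lay within 1 kb of a TSS and none had an unadjusted limma p under 0.05. Zinc finger genes had 22 members of 481 regions (4.57%), 16 of them within 1 kb. Among these the first exon of Zfp202 was lower, with 23.77 and 18.95 in the controls against 11.22 and 5.42 (log2 change −1.23 ± 0.39, limma adjusted p of 0.303), although its highest peak was of the 5 classes in only 1 library. Small RNA genes and their hosts had 19 members of 378 regions (5.03%), so both shares were near that of all shared regions. One of them, a gene end of Nrp1, a neuropilin (Mir1903), was higher, with 19.93 and 11.9 against 27.92 and 21.34. Its log2 change was 0.85 ± 0.30 (limma adjusted p of 0.389), and 0.56 without control replicate 2. Kctd12 (Mir5130) was lower, as given above.

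Of the 44 genes with 2 or more members, 15 had members on both sides of 1 kb, 22 had all of them beyond 1 kb, among them Vapb, and 7 had all of them within it, among them Gm13375. Of the 3 regions assigned to Tbc1d9, the 5' UTR at 159 bp from the TSS had heights of 16.27 and 11.25 in the controls against 15.72 and 14.37, the rest of exon 1 at 826 bp had 3.17 and 6.06 against 2.9 and 5.62, and the region at −78604 bp, in the 3' UTR of Rnf150, had 8.25 and 10.2 against 4.38 and 5.44. The third was lower in both IL-4 libraries while the other two overlapped between groups. Exon 1 of Pccb, a subunit of propionyl-CoA carboxylase, had 21.51 and 19.12 against 35.84 and 26.3, whereas its second region, 168694 bp away in exon 14 of the cohesin gene Stag1, had 23.87 and 9.87 against 18.27 and 16.78 and overlapped between groups.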

How the data were processed

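The authors aligned reads to mm10 with BWA 0.7.10 and SAMtools 0.1.19, called peaks per library with MACS2 2.0.10, removed blacklisted regions and annotated them with HOMER 4.2 (versions from the submitters' processing notes). Replicates were not pooled. The deposited Peak Score has no stated unit and was read as −log10 of the MACS2 q-value. The lowest score was 1.3, although the methods name a q-value limit that would correspond to a score of 2. A score grows with depth, which is unknown, and DiffBind could not be run without reads. Tn5 shifting and duplicate handling are not given in the sources used here.

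Peaks overlapping by 1 bp or more were merged, and each region took its highest score per library. Log2 heights of the 25442 shared regions were quantile-normalised and fitted with limma 3.58.1 in R 4.3.3 (eBayes with a trend, Benjamini-Hochberg threshold 0.05). The fit was first tested on simulated data with a log2 change of 2.5 planted in 200 regions. This exceeds every member change named here, so the simulation does not show whether such smaller changes can be called. Library values were compared by an exact two-sided permutation test, and shares by Wilson intervals (scipy 1.17.1) that cover counting error only. Motifs were sought as exact matches in GRCm38.p6, the assembly of mm10, and 82.2% of 1104 members with a known transcript had the same TSS distance within 2 bp. Matches of different motifs may overlap. Nothing in the labels says whether replicates came from separate animals, although the study's methods call them biological, so p-values measure the spread between these libraries. The regions, gene lists and motifs were chosen with earlier results of these data known. Named regions were those with the 8 largest changes each way at an unadjusted p under 0.05, the 3 highest per class, genes with most members, the 3 largest changes each way with a STAT6 motif, up to 4 members per gene list, the weakest members and the strongest excluded regions, and the 3 widest. Of the regions these rules name, 2 are not reported here. Others named were chosen after their values were seen. Alternatives were another normalisation, a pseudocount of 5, a minimum height of 2, summed heights, merging within 100 bp, no trend, a replicate block, other windows and leaving out each library.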

Additional observations from a re-analysis of the deposited data

How the results depend on the processing

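No member passed the adjusted limma threshold under any of the 11 alternatives, leave-one-out fits included, while the number of all shared regions that passed ran from 0 to 14. The number of members at an unadjusted limma p under 0.05 stayed within 1.5 times of 76 except without IL-4 replicate 2, and ran from 48 to 70 when 1 library was left out. The deviations of same-numbered libraries were nearly uncorrelated over the members (r = 0.0165). With 2 pairs only, this cannot tell whether such libraries share an animal or a day. With the replicate number as a block, 80 members had an unadjusted limma p under 0.05. The adjusted threshold was passed by 0 of them and by 14 of all regions, and no other call changed. The shift of the members' median against all regions was −0.0238 log2 units, −0.0308 to −0.0179 without 1 library, −0.0238 as the mean of both pairs, 0.0016 with summed heights (reversed) and 0.0473 for members within 1 kb alone (reversed, chosen after seeing the data). The cause was not tested. The share of peaks in the 5 classes differed by −0.178 percentage points, and by −0.277 to −0.0795 without 1 library. The number of members was 509 when only peaks above the pooled median score were used, since fewer peaks entered, and 807 to 1121 under the other definitions. The share of members with a STAT6 motif was 8.63% in whole regions and 1.87% in 100-bp windows, since the searched length changed. Among distal members, those with the motif differed from the others in median log2 change by 0.0545, by −0.0474 (reversed) to 0.149 without 1 library, with the reversal falling on IL-4 replicate 2, and by 0.0407 in whole regions and 0.113 in 100-bp windows (chosen after seeing the data). Of the single-region log2 changes recomputed for 24 named regions, 262 kept their direction and 1 reversed, that of Irak3 (Helb), which ran from −1.299 to 0.178 without 1 library. Depth is unknown, so absence of a peak cannot be told from shallow sequencing.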

Other observations

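Mitochondrial peaks, which were kept out of the regions, numbered 3 and 2 in the controls, against 3 and 4 after IL-4. After the values were seen, 3 further members with a low unadjusted limma p were listed. The non-coding region in 1700034H15Rik (Slc30a1), with heights of 41.23 and 33.89 in the controls against 23.94 and 14.17 after IL-4, had the lowest p of any member and a log2 change of −0.88. The gene end of Fmo4, a flavin monooxygenase, had 17.9 and 21.79 against 5.89 and 7.68, with a log2 change of −1.33. The gene end of Rab30, a small GTPase of the Golgi (4632434I11Rik), had 22.98 and 35.74 against 22.0 and 6.97. In all 3 both unnormalised IL-4 heights were below both controls, and none passed the adjusted limma threshold.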
